A study of Homo sapiens with 2 samples.

Results

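The cells described here are the untreated mesenchymal stem cells that the deposited cell table assigns to cluster 6. They were chosen by library name and cluster number alone, and number 842 of 8101 untreated cells (10.4%) and of 20656 cells in the whole series. They are set against the untreated cells of clusters 1 and 2, which hold 3687 and 3094 cells and are the largest clusters of that library. Human mesenchymal stem cells from adipose tissue, a commercial product, were cultured until about 90% confluent and starved overnight. In the TGFB group TGFB1, a secreted growth factor of connective tissue, was then added at 10 ng/mL for 24 hours, while the untreated group received none. All cells come from this 1 commercial source, were detached with trypsin and were frozen before single-cell sequencing, and each condition is 1 library. With 1 library per condition cells are not replicates, and the clusters were formed from the same genes, so no value here carries a test. Each library was counted in unique molecular identifiers (UMIs), which stand for captured RNA molecules.

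In dividing cells the genome is copied in S phase, checked in G2 and shared out in mitosis (M), and G1 is the gap before copying starts. Copying needs licensing factors such as the MCM helicase, enzymes at the replication fork and newly made nucleotides and histones, whereas mitosis needs cyclin B with its kinase CDK1, spindle motors and kinetochore proteins. Many mitotic genes share promoter elements through which the DREAM and MMB protein complexes act, and many S phase genes have E2F sites. Stromal cells of adipose tissue secrete collagens, proteoglycans, complement proteins and cytokines, and stop dividing when crowded or starved.

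Cluster 6 was sequenced about as deeply per cell as cluster 1. The median cell of cluster 6 had 21262 UMIs from 5408 genes, and the cluster summed to 20323964 UMIs. Cluster 1 summed to 84737587 UMIs (median cell 21470) and cluster 2 to 53735413 UMIs (median cell 16327). Ribosomal protein genes took 13.4% of UMIs in cluster 6, 14.3% in cluster 1 and 18.1% in cluster 2, and the nuclear RNA MALAT1 took 1.18%, 2.41% and 0.992%. Both libraries shared 18 cell barcodes, of which 1 lay in untreated cluster 6. Several defining markers of other cell types had no UMI in cluster 6, among them CDH5, KDR and CLDN5 of endothelium, LYZ, TYROBP and AIF1 of myeloid cells, ADIPOQ, PLIN1 and LPL of adipocytes and EPCAM and KRT5 of epithelium. Other listed markers were present in every cluster: the macrophage marker CD68 was at 29.5 CPM in cluster 6, 20.2 in cluster 1 and 29.2 in cluster 2, and the keratin KRT19, on the epithelial and mesothelial list, at 570, 614 and 877 CPM. RGS4 and ABCC9 of the mural list were at 35.2 and 45.3 CPM in cluster 6, against 5.36 and 99.9 CPM in cluster 1 and 6.51 and 56.2 CPM in cluster 2. Their part in the results was not tested. The summed level of the 5 endothelial markers was 0.590 CPM (counts per 1000000 UMIs of the group) in cluster 6 and 0.195 CPM in clusters 1 and 2 together. That of the 5 mural cell markers was 19.2 and 10.4 CPM.

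Markers of division were high in cluster 6. MKI67, a protein that coats mitotic chromosomes, was at 225 CPM in cluster 6, 1.78 CPM in cluster 1 and 0.949 CPM in cluster 2. TOP2A, the topoisomerase that untangles sister chromatids, was at 379, 4.78 and 4.08 CPM, and CDK1 at 127, 2.03 and 2.66 CPM. All 3 were far higher in cluster 6, and so were the other markers, CCNB1 (cyclin B1) at 239, 3.97 and 5.10 CPM and UBE2C, the ubiquitin-conjugating enzyme of the anaphase-promoting complex, at 282, 1.51 and 2.25 CPM. Against clusters 1 and 2 together the ratios ran from 54.3-fold for CCNB1 (49.9 to 59.2) to 157-fold for UBE2C (138 to 179). Intervals in brackets are exact 95% intervals of the summed counts and, here and throughout, cover counting error only. A UMI of MKI67 or TOP2A was found in 729 cells of cluster 6 (86.6%) and in 655 cells of clusters 1 and 2 (9.66%). All 5 markers were present in 290 cells of cluster 6 (34.4%) and in 2 cells of clusters 1 and 2, and none in 56 cells (6.65%) and 5375 cells (79.3%). After every cell was thinned to 7500 UMIs, which left 823 and 6429 cells, MKI67 was found in 63.7% of cluster 6 and 0.949% of clusters 1 and 2, against 79.2% and 2.17% with all UMIs. PTPRC, a leukocyte gene that stromal cells lack, was found in 0 of the 823 thinned cells, which allows a share of cells with a UMI at this depth of up to 0.447% (exact upper bound), and in 0.249% of the thinned cells of clusters 1 and 2. With all UMIs it was found in 1 of 842 cells of cluster 6.

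Most cells of cluster 6 were called G2M. Each thinned cell was scored for 43 S phase genes and 54 G2 and M phase genes and called S or G2M by the higher positive score, or G1 if neither was positive. In cluster 6, 64 cells were called G1 (7.78%, 6.04 to 9.82), 238 S (28.9%, 25.8 to 32.1) and 521 G2M (63.3%, 59.9 to 66.6). In clusters 1 and 2, 78.8% were called G1, 21.05% S and 0.124% G2M. The S share of clusters 1 and 2 is no count of replicating cells: 4262 of their 6429 cells scored within 0.05 of a boundary, as did 194 of 823 in cluster 6, and the part of free RNA in these calls was not tested. With other cycle genes in place of these lists the shares were 4.62% G1, 7.41% S and 88.0% G2M in cluster 6, and the S share of clusters 1 and 2 was 2.41%. A UMI of MKI67 or TOP2A was found in 46.9% of cluster 6 cells called G1, 74.0% of those called S and 98.1% of those called G2M, at median depths of 18676, 23120 and 21243 UMIs. TOP2A belongs to the lists that made the calls, so its order across phases follows from them, whereas MCM2 is in neither list. TOP2A stood at 16.5 CPM in G1, 97.7 CPM in S and 554 CPM in G2M cells, while the helicase subunit MCM2 was highest in S, at 2.06, 20.2 and 9.08 CPM.

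**Figure D1:**
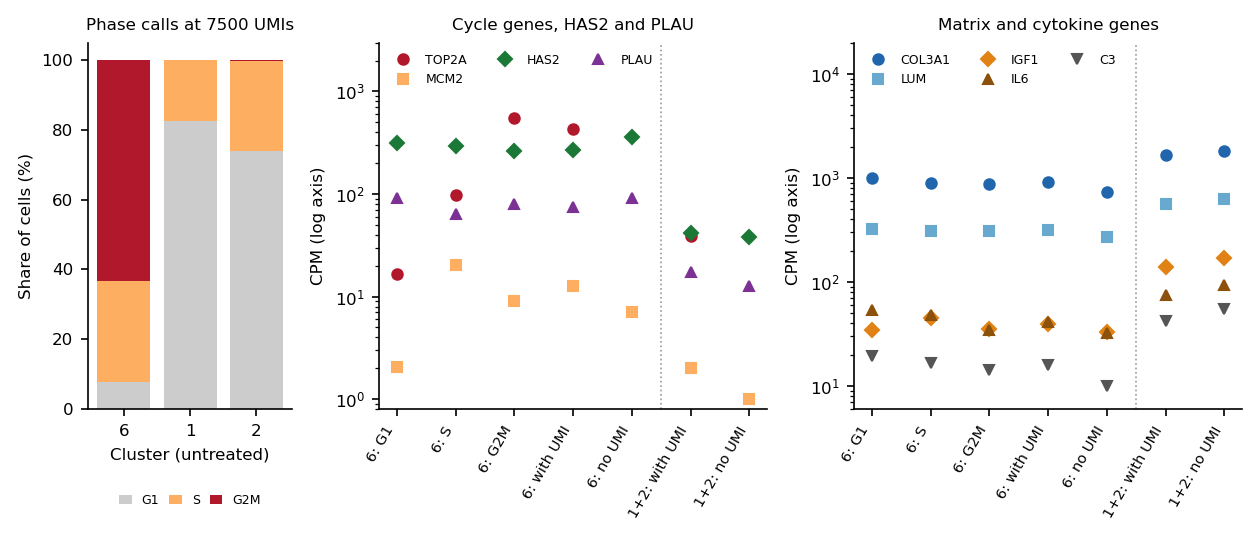
The left panel stacks the percent of untreated cells called G1, S and G2M at 7500 UMIs in clusters 6, 1 and 2. The other panels plot CPM on log axes of 4 and 5 genes in cluster 6 cells called G1, S and G2M, in cluster 6 cells with and without an MKI67 or TOP2A UMI and in cells of clusters 1 and 2 with and without one. TOP2A is at 0 in the subsets without a UMI and is not drawn there. HAS2 lies between 263 and 358 CPM in all 5 subsets of cluster 6 and at 41.5 and 37.9 CPM in the subsets of clusters 1 and 2, while TOP2A, a gene of the phase lists, spans 16.5 to 554 CPM across the called phases.

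Across all genes, more were higher in cluster 6 than lower. Of 11154 genes at 5 CPM or more in cluster 6 or in clusters 1 and 2, 1695 (15.2%) were at least 1.5-fold higher in cluster 6 and 763 (6.84%) at least 1.5-fold lower. At 2-fold the counts were 768 (6.89%) and 256 (2.3%). The median log2 ratio of all these genes was 0.12, and it moved to -0.01 with TMM and 0.00 with median-of-ratios scaling. The split moved with it, to 1277 higher and 1117 lower with TMM and 1314 and 1076 with median-of-ratios factors. Against cluster 1 alone 1617 genes (14.3%) were higher and 1376 (12.1%) lower, and against cluster 2 alone 3767 (34.2%) were higher and 537 (4.87%) lower. The genes named below as at least 1.5-fold higher or lower keep their direction under all 3 scalings, and counts of list members are given on the CPM scale unless stated.

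The highest ratios belonged to mitotic genes. KIF14, a kinesin of the late mitotic midzone (minus strand, chromosome 1 from 200551497 to 200620734 in GENCODE release 29, GRCh38), was at 73.3 CPM in cluster 6, 0.271 CPM in cluster 1 and 0.391 CPM in cluster 2, and 231-fold higher than in clusters 1 and 2 together (171 to 319). The linker histone gene H1-5 was 223-fold higher (140 to 379), the centrosome kinase NEK2 196-fold (139 to 284) and DEPDC1 189-fold (149 to 244). HMMR, a spindle protein also known as a hyaluronan receptor, was 178-fold higher at 126 CPM, and the checkpoint kinase BUB1B 176-fold. KIF18B (166-fold), the kinetochore protein SPC25 (163-fold), UBE2C, KIFC1 (156-fold), MKI67 and the cohesin acetyltransferase ESCO2 (153-fold) complete the 12 highest among genes at 20 CPM or more. All but ESCO2 are members of the cycle lists.

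Mitotic lists were higher as a whole, which the choice of cluster already implies. All 54 G2 and M phase genes used for the phase calls were at least 1.5-fold higher, with a median log2 ratio of 4.83, and all 43 further spindle, kinesin and kinetochore genes, with a median of 4.38. Of 17 further cyclins and kinases of G2 and M, 16 were higher (median 4.5), among them PLK1, the kinase of mitotic entry, at 58.7 CPM in cluster 6, 0.826 in cluster 1 and 0.689 in cluster 2. Of 16 chromatin proteins 13 were higher, and the nuclear lamin LMNB1 was at 62.9, 1.63 and 1.04 CPM. Genes of the phase lists were higher in G2M or S cells because they made those calls, so only the other cycle genes are informative: 35 of the 43 spindle genes were at least 1.5-fold higher in cluster 6 cells called G2M than in those called S, and 0 were lower.

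S phase genes were higher in cluster 6 by less. Of 42 measured S phase genes 39 were higher (median 2.63), and so were 13 of 13 licensing and initiation factors (median 2.94) and 18 of 18 fork and nucleotide enzymes (median 2.43). The licensing factor CDT1 was at 15.3 CPM in cluster 6, 0.496 in cluster 1 and 0.614 in cluster 2. MCM10, which helps start the fork, was at 13.7, 0.366 and 0.223 CPM, and in cluster 6 at 10.3 CPM in G2M cells and 24.2 CPM in S cells. FAM111B was at 8.46 CPM in G2M cells and 39.5 CPM in S cells, a further gene with its higher level in S. Their lists were less clear. Of 15 licensing and initiation factors measured by phase, 5 were at least 1.5-fold higher in S cells and 3 in G2M cells. Of 18 fork and nucleotide enzymes 1 was higher in S and 1 in G2M cells (median log2 ratio of G2M to S 0.08). Of all genes 4.37% were higher in S and 4.19% in G2M cells. Of 20 nucleotide synthesis genes 11 were higher, with the folate enzymes SHMT1 at 11.2, 2.75 and 2.48 CPM and MTHFD1 at 31.6, 12.7 and 10.7 CPM. With TMM factors 8 of these 20 were higher and 2 lower.

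Histone genes were split. Of 12 measured replication-dependent histone genes 8 were higher and 3 lower, and transcripts of this class mostly lack the poly(A) tail that the labelled RNA type implies was captured. H1-3 was at 47.1 CPM in cluster 6, 3.30 in cluster 1 and 2.20 in cluster 2. H2AC6 was lower, at 18.1, 54.6 and 57.5 CPM, as were H2BC4 and H2BC5. Reads shared among near-identical histone genes could not be assessed from these counts. Among histone genes listed as independent of replication, the variant H2AZ1 reached 1702 CPM in cluster 6, against 261 and 350 CPM, and H2AX 85.0 CPM, against 9.88 and 12.5 CPM.

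Regulators of the G1 exit differed less. CCND1 (cyclin D1) was at 312 CPM in cluster 6, 138 in cluster 1 and 173 in cluster 2, and CDK2 at 8.61, 2.01 and 1.86 CPM, which made 2 of 5 genes higher. Of 10 CDK inhibitors and pocket proteins, RBL1, a member of the DREAM complex, was higher at 29.1, 6.38 and 3.61 CPM, as were the CDK4 and CDK6 inhibitors CDKN2D (31.3, 7.73 and 10.3 CPM) and CDKN2C (51.4, 26.0 and 31.9 CPM). CDKN1C was lower, at 8.46, 21.5 and 26.3 CPM, and CDKN2B at 16.5, 34.8 and 33.1 CPM. So the members of this list went both ways. CDKN1A (p21), looked at after the values were seen, was at 124, 156 and 140 CPM and within 1.5-fold. Of 21 p53 target genes 0 were higher and 4 were lower, beside 15.2% and 6.84% of all genes. ZMAT3, at 63.7, 133 and 94.5 CPM, was the most abundant of the lower ones.

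Genes outside every cycle list also had high ratios. After ESCO2 came IQGAP3, a scaffold protein, at 30.7 CPM in cluster 6, 0.590 in cluster 1 and 0.391 in cluster 2 (59.8-fold, 46.7 to 77.5), and the DNA repair polymerase POLQ at 22.5 CPM (57.8-fold). The cytokinesis protein SHCBP1 was at 65.3, 1.52 and 1.01 CPM, and DEPDC1B, NEIL3 (a glycosylase of damaged bases), TRIP13 and PRR11 were 42.4-fold, 28.7-fold, 26.8-fold and 24.3-fold higher. APOBEC3B, a cytidine deaminase, was at 43.9, 1.82 and 1.898 CPM (23.7-fold, 20.6 to 27.4), though reads shared with near-identical APOBEC3 genes could not be assessed. MXD3, CENPI and MYBL1 complete the 12, at 23.1-fold, 22.7-fold and 19.7-fold. Several of these are known genes of DNA replication, repair or division that the lists had not held.

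The promoters of 3 of the marker genes and of MCM6 are shown because they carry the elements that the background names, in mitotic genes and in 1 S phase gene. Each line gives the 250 bases before the RefSeq transcript start (GRCh38.p14), 5′ to 3′ on the gene's strand, with matches in capitals. Searched on both strands were the cell cycle homology region CHR (TTTGAA or TTCGAA), the CCAAT box (read as ATTGG on the other strand) and E2F sites (TTTCCCGC; also TTTGGCGC; also TTTGCCGC; also TTTCGCGC).
MKI67 (chr10:128126424-128126673, minus strand): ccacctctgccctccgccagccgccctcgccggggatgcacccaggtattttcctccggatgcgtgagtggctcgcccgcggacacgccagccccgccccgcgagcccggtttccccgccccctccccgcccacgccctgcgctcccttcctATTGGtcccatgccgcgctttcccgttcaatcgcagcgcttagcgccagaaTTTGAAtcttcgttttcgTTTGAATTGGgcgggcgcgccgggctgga
TOP2A (chr17:40417897-40418146, minus strand): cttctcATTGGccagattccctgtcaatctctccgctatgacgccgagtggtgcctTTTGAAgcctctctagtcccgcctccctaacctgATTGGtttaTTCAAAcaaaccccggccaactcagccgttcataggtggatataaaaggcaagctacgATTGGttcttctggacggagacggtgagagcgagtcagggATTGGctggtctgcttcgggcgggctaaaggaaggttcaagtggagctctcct
CDK1 (chr10:60778081-60778330, plus strand): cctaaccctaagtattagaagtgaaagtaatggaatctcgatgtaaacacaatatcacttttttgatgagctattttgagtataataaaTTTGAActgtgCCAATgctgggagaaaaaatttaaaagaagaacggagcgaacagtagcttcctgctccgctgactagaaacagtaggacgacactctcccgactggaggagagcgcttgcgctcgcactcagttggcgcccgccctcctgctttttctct
MCM6 (chr2:135876444-135876693, minus strand): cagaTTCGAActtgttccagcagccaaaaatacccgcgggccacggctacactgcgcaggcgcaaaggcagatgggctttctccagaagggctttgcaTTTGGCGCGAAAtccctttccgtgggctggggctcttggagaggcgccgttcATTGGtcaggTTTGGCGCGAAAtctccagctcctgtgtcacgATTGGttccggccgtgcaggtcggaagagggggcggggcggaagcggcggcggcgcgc
In MKI67 there are 2 CHR and 2 CCAAT matches, of which 1 of each overlap by their shared letters, and in TOP2A 2 CHR and 4 CCAAT matches. CDK1 has 1 of each. MCM6, a subunit of the MCM helicase at 28.7 CPM in cluster 6, 13.1 in cluster 1 and 12.6 in cluster 2, lies below the median ratio of the S phase list and has 4 E2F matches that lie as overlapping pairs on both strands, with 2 CCAAT and 1 CHR match. Its promoter was chosen after its matches were seen.

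Matches were then counted over the lists. A promoter was in the RefSeq table for 45 of 54 G2 and M phase genes, and 25 of these (55.6%) held a CHR match, 31 (68.9%) a CCAAT match and 2 (4.44%) an E2F match. Of 33 matched S phase genes 2 (6.06%) held a CHR match, 22 (66.7%) a CCAAT match and 13 (39.4%) an E2F match. Between these lists CHR matches were more frequent in the mitotic one and E2F matches in the S phase one, while the shares with a CCAAT match were close. In the other cycle lists E2F matches did not divide this way: 20% of 15 cyclins and kinases of G2 and M, 13.3% of 15 fork and nucleotide enzymes and 15.4% of 13 licensing factors held one, and 5.41% of 37 spindle genes. CHR matches were in 33.3%, 13.3%, 0% and 37.8% of these lists in the same order. Among all 27305 tabulated promoters the share with a CHR match was 14.6%, and 33% held a CCAAT match and 2.79% an E2F match, and of 8959 matched genes at 5 CPM or more 9.99%, 35.4% and 4.54% did. Of 118 matched genes of the matrix lists, 11% held a CHR match and 0.847% an E2F match. A match describes the letters of this window and is no binding site.

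Matrix genes were lower in cluster 6 more often than higher. Over 131 measured of 163 listed matrix genes, 13 were higher by 1.5-fold or more and 39 were lower by as much, beside 15.2% higher and 6.84% lower of all genes, and the median log2 ratio was -0.33, beside 0.12. The interstitial collagens carry most of these UMIs. COL1A1, the main chain of type I collagen, was at 3811 CPM in cluster 6, 6959 in cluster 1 and 6946 in cluster 2, and COL1A2 at 4580, 7831 and 7770 CPM. COL3A1, of type III collagen, was at 892, 1889 and 1630 CPM and COL5A2 at 459, 960 and 699 CPM. These 4 of 7 fibrillar collagens were lower in cluster 6 than in either other cluster, and 0 were higher (median -0.77). Of 13 other collagens COL8A1 (66.5, 166 and 114 CPM), COL12A1 and COL16A1 were lower, and the transmembrane collagen COL13A1 was higher at 14.5, 7.46 and 6.25 CPM. Fibronectin, FN1, looked at after the values were seen, was at 4782, 7966 and 7539 CPM (1.63-fold lower, 1.62 to 1.64).

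Proteoglycans, elastic fibre genes and matricellular proteins followed the collagens. LUM (lumican), a proteoglycan that spaces collagen fibrils, was at 309 CPM in cluster 6, 573 in cluster 1 and 696 in cluster 2, and DCN (decorin) at 1264, 2106 and 2252 CPM. They were 2 of 5 lower among 7 small leucine-rich proteoglycans, with ASPN, PODN and ECM2. ELN (elastin) was at 450, 809 and 897 CPM and the microfibril protein MFAP4 at 28.4, 76.7 and 88.9 CPM, and 8 of 16 elastic fibre genes were lower and 0 higher. Of 15 matricellular genes 7 were lower: SPARC, which binds collagen, at 1727, 3304 and 3559 CPM, THBS1 at 1057, 1984 and 1741 CPM, and THBS2 at 41.1, 124 and 99.6 CPM, the lowest ratio of the list (log2 -1.48). CCN3 was the exception, higher at 74.3, 42.4 and 45.1 CPM. Enzymes that modify collagen differed less: of 24, 3 were higher, including the cross-linking oxidase LOXL1 at 127, 66.3 and 76.7 CPM, and PLOD2 was lower. Both counts are below the shares of 15.2% and 6.84% of all genes.

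**Figure D2:**
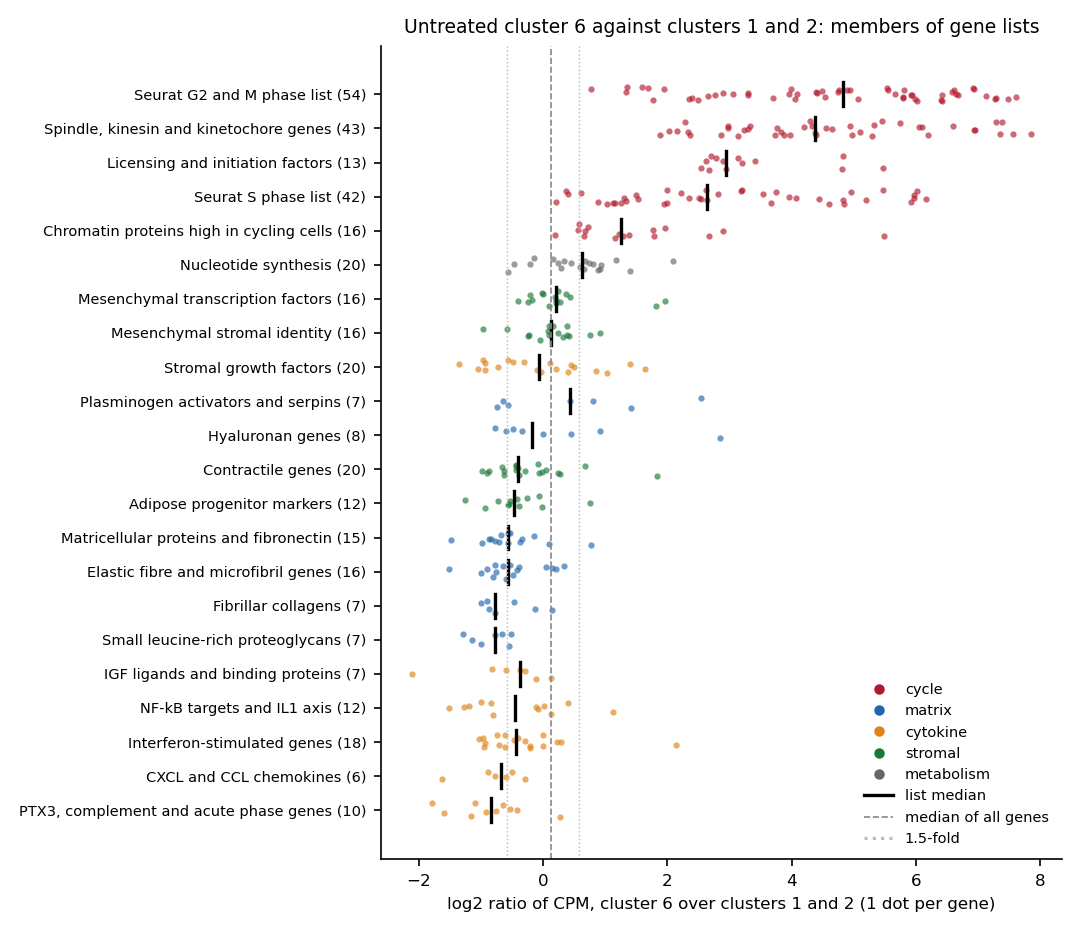
Each dot is the log2 ratio of CPM in untreated cluster 6 over clusters 1 and 2 for a gene at 5 CPM or more, in rows by gene list. Black bars are list medians, the dashed line is the median of all genes (0.12) and dotted lines mark 1.5-fold. Mitotic lists lie far to the right, while the medians of fibrillar collagens (-0.77), small leucine-rich proteoglycans (-0.77) and complement genes (-0.83) lie beyond 1.5-fold to the left.

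Some genes of hyaluronan and plasminogen activation were higher, though their lists went both ways. Of 8 hyaluronan genes 2 were higher and 2 lower (median -0.17), and of 7 plasminogen activator and serpin genes 3 were higher and 2 lower (median 0.43). HAS2, the enzyme that makes hyaluronan at the cell surface, was at 276 CPM in cluster 6, 40.1 in cluster 1 and 35.6 in cluster 2, 7.21-fold higher (6.94 to 7.48). A HAS2 UMI was found in 51.9% of thinned cells of cluster 6 and in 15.3% of those of clusters 1 and 2 (69.7% and 25.9% with all UMIs). The hyaluronan receptor CD44 was also higher, at 358, 195 and 181 CPM. In contrast CEMIP, which degrades hyaluronan, was lower at 1063, 2224 and 1168 CPM, near the level of cluster 2, and TNFAIP6, which links proteins to hyaluronan, was lower at 47.0, 70.5 and 72.5 CPM. PLAU (urokinase; plus strand, chromosome 10 from 73909177 to 73917497) was at 76.4, 13.4 and 12.8 CPM, 5.80-fold higher (5.42 to 6.21). Its receptor PLAUR was at 84.6, 42.4 and 57.5 CPM and the tissue activator PLAT at 92.9, 34.9 and 34.99 CPM, so that both activators and the receptor were higher. The serpins SERPINF1 (PEDF, not known as a protease inhibitor) and SERPING1 (the complement C1 inhibitor) of the same list were lower. Among metalloproteinases the collagenase MMP1 was higher, at 43.0, 20.1 and 24.96 CPM, and MMP2 (352, 580 and 577 CPM) and MMP3 were lower, and the inhibitor TIMP3 was higher at 371, 219 and 259 CPM. Of 16 ADAMTS and ADAM proteases ADAMTS15 was higher and ADAMTS5 (8.56, 33.4 and 18.3 CPM), ADAMTS1 and ADAMTS7 were lower. Against cluster 1 alone 0 of this list were higher, with ADAMTS15 at 6.74, 5.18 and 2.20 CPM.

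**Figure D3:**
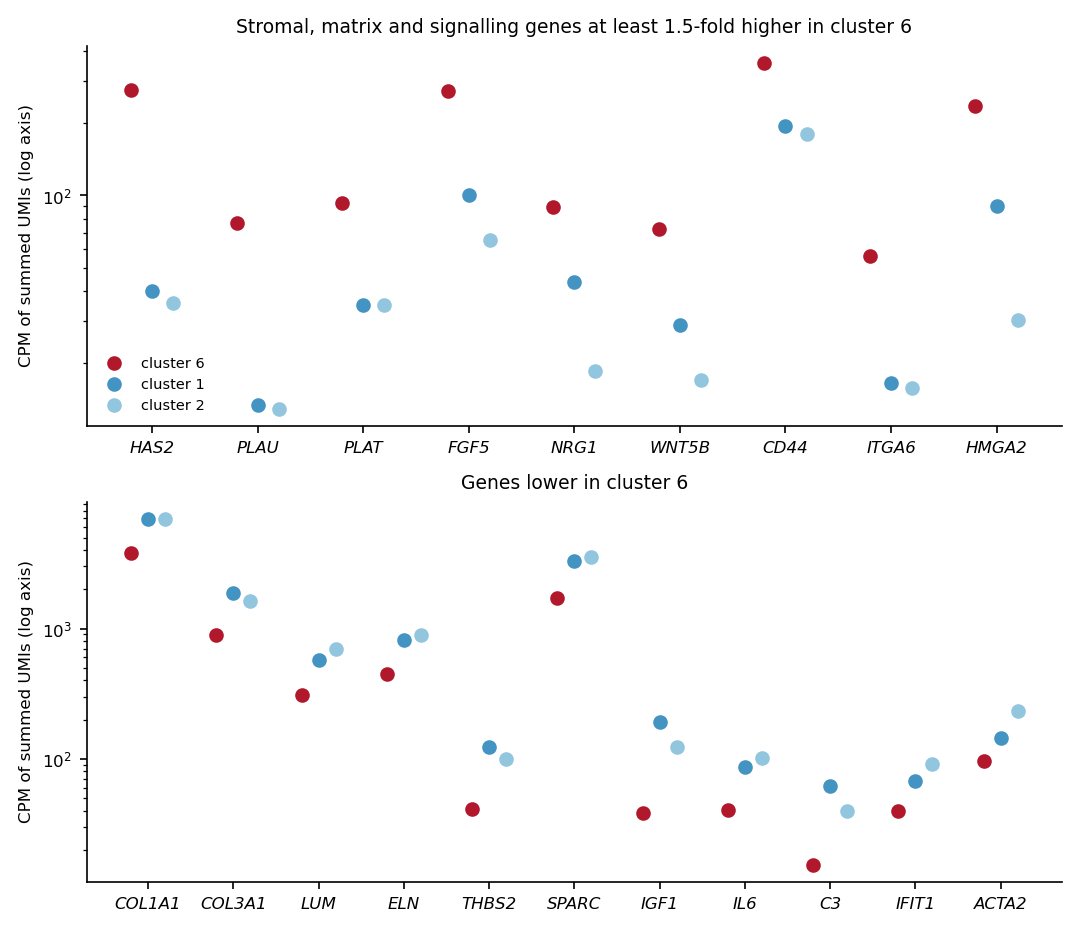
CPM on log axes of 20 stromal, matrix and cytokine genes in untreated clusters 6, 1 and 2. Genes above (HAS2 to HMGA2) are higher in cluster 6 than in both other clusters, and those below (COL1A1 to ACTA2) are lower than in both, as for COL3A1 at 892, 1889 and 1630 CPM.

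Cytokines and innate immune genes were also lower more often. Over 90 measured of 141 listed genes, 8 were higher and 37 lower, with a median log2 ratio of -0.43, beside 15.2% higher and 6.84% lower of all genes and their median of 0.12. Of 10 genes of the complement and acute phase list 7 were lower and 0 higher. C3, the central complement protein, was at 15.3 CPM in cluster 6, 61.3 in cluster 1 and 39.8 in cluster 2 (3.47-fold lower, 3.10 to 3.90), CFB at 12.8, 40.1 and 36.8 CPM, and the proteases C1S and C1R at 84.5, 195 and 180 CPM and at 81.1, 171 and 179 CPM. IL6, the cytokine of acute inflammation, was at 40.1, 87.0 and 101 CPM, and with CTF1 (cardiotrophin) it was lower among 11 genes of the interleukin 6 family. IL11, of the same family, had 83 UMIs in cluster 6, at 4.08, 2.80 and 2.64 CPM. It was below the 5 CPM minimum, and a UMI was found in 3.28% of thinned cells of cluster 6 and 2.05% of those of clusters 1 and 2 (8.19% and 4.87% with all UMIs). Its receptor subunit IL11RA was at 19.98, 17.1 and 22.7 CPM. Both genes were picked with their values already known.

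Chemokines, NF-kB targets and interferon-stimulated genes had few higher members. CXCL6 was at 4.97 CPM in cluster 6, 18.4 in cluster 1 and 10.7 in cluster 2, and CXCL1, CXCL3 and CCL2 were lower too, which made 4 of 6 chemokines. SOD2, the mitochondrial superoxide dismutase induced by NF-kB, was at 129, 408 and 301 CPM and IL1B at 8.91, 18.7 and 22.9 CPM, among 6 of 12 lower, and IRAK2 was higher. Of 18 interferon-stimulated genes 8 were lower, with IFITM3, which blocks viral entry, at 459, 866 and 1064 CPM and IFIT1 at 39.95, 67.9 and 91.7 CPM. OAS3, which senses double-stranded RNA, was the only one higher, at 9.64, 2.29 and 2.03 CPM. Of 6 prostaglandin genes the receptors PTGER2 (22.1, 6.62 and 7.11 CPM) and PTGER3 were higher, and PTGS2 was lower at 3.54, 6.53 and 4.13 CPM. PTGS2 had 72 UMIs in cluster 6. Against cluster 1 alone only 1 of the list, PTGER2, was higher, and against cluster 2 alone 0 were lower.

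Growth factors were mixed. FGF5 (plus strand, chromosome 4 from 80266599 to 80336680), a fibroblast growth factor, was at 272 CPM in cluster 6, 101 in cluster 1 and 65.2 in cluster 2 (3.13-fold higher, 3.03 to 3.23). NRG1, a ligand of ERBB receptors, was at 89.3, 43.6 and 18.6 CPM, PDGFC at 78.3, 48.7 and 22.6 CPM and GDNF at 10.7, 6.64 and 4.80 CPM. These 4 of 20 were higher and 6 were lower (median -0.06), beside 15.2% and 6.84% of all genes, among them PDGFD and the neurotrophin BDNF at 48.0, 111 and 80.0 CPM. IGF1 (minus strand, chromosome 12 from 102395874 to 102481744), the insulin-like growth factor, had the lowest ratio of its list, at 38.4, 193 and 123 CPM (4.32-fold lower, 4.02 to 4.65). Its binding proteins IGFBP5 (3620, 6209 and 6657 CPM) and IGFBP7 were lower as well, 3 of 7 in all.

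IGF1, SLC39A8 and C3 were among the 12 lowest ratios of all genes at 20 CPM or more. The zinc and manganese transporter SLC39A8 was at 12.5 CPM in cluster 6, 71.5 in cluster 1 and 35.4 in cluster 2, and the chemoattractant RARRES2 (chemerin) at 10.3, 47.7 and 38.9 CPM. GUCY1A2, TPD52L1, ABCA9, DMGDH and 3 genes with Ensembl identifiers only were also among them. ABCA9 was at 5.86, 33.0 and 6.51 CPM, so its low ratio was set by cluster 1.

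Of the signalling lists the Wnt pathway was the most shifted, with 1 of 15 genes higher, 6 lower and a median log2 ratio of -0.515 (10 lower against cluster 1 alone, median -0.80), beside 15.2% higher and 6.84% lower of all genes and their median of 0.12. The median was -0.13 for 24 TGFB pathway genes. SMAD3, a transcription factor of TGFB signalling, was higher at 161 CPM in cluster 6, 99.2 in cluster 1 and 45.0 in cluster 2. Of the 24 genes of that list 6 were lower, including GREM1, an antagonist of bone morphogenetic proteins, at 499, 1007 and 813 CPM. WNT5B was at 72.3, 28.8 and 16.95 CPM and was the 1 higher Wnt gene, while the lower ones included the Wnt amplifier RSPO3 at 43.2, 106 and 71.4 CPM. FOSL1, an AP-1 subunit, was at 90.5, 17.8 and 14.1 CPM (5.53-fold higher, 5.2 to 5.88) and was the only one higher among 19 YAP and SRF targets. JUN (94.4, 48.7 and 41.3 CPM), KLF6 and IER2 were higher among 13 immediate early genes, of which 0 were lower.

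Over all stromal lists 17 of 111 measured genes were higher and 31 lower, with a median log2 ratio of -0.22, beside 15.2% higher and 6.84% lower of all genes. These lists include 19 neuronal-type genes, of which 5 were higher and 9 lower. The sign of the median depended on the cluster compared. Against cluster 1 alone 14 were higher and 39 lower (median -0.25), beside 14.3% and 12.1% of all genes. Against cluster 2 alone 32 were higher and 22 lower (median 0.15), beside 34.2% and 4.87% of all genes. Neuronal-type genes made up 4 higher and 13 lower of the first counts, and 11 higher and 1 lower of the second. In both comparisons the lower count was above the share of all genes. Against both clusters together the counts of identity genes were close to the shares of 15.2% and 6.84%, and some contractile genes were lower. Of 16 measured identity genes CD44 and ANPEP (CD13; 76.0 CPM in cluster 6, 46.1 in cluster 1 and 43.1 in cluster 2) were higher and PDGFRB was lower at 54.4, 113 and 96.2 CPM. The other 13, among them THY1 (CD90) at 856, 700 and 963 CPM, NT5E (CD73) at 369, 285 and 267 CPM and PDGFRA at 205, 220 and 125 CPM, were within 1.5-fold of clusters 1 and 2 together. Of 20 contractile genes 6 were lower, with ACTA2 (smooth muscle actin) at 95.3, 144 and 232 CPM, MYLK at 116, 253 and 191 CPM and MYH10 at 235, 485 and 346 CPM, and TAGLN2 was higher. ACTC1 was higher too, but 79.5% of its 254 UMIs in cluster 6 came from 1 of 30 cells. Among 17 integrin and adhesion genes the laminin receptor subunit ITGA6 (55.9, 16.6 and 15.8 CPM) and ITGA3 were higher, and the collagen receptor subunit ITGA11 (84.9, 270 and 160 CPM) was lower with ITGA8, ITGA1, ITGAV and ITGB8. Of these ITGB8 was at 52.2, 122 and 49.7 CPM, so that it was lower than in cluster 1 and at 0.069 on the log2 scale against cluster 2 alone. Of 12 measured adipose progenitor markers 1 was higher and 3 were lower (median -0.47). DPP4, a marker of early adipose progenitors, was 1 of the lower ones, at 93.3, 251 and 178 CPM. HMGA2, a chromatin protein of mesenchymal progenitors, was at 236, 90.1 and 30.1 CPM and FOXC2 at 10.8, 2.56 and 3.16 CPM, and both were higher among 16 mesenchymal transcription factors, of which 0 were lower. Of 9 measured adipogenic genes 2 were higher and 4 lower (median -0.23). FABP5, a fatty acid carrier, was higher at 107, 22.6 and 29.4 CPM. CEBPD at 160, 256 and 326 CPM, CEBPB and ADH1B were lower.

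Within cluster 6 the genes with the clearest stromal differences were given by phase. HAS2 was at 315 CPM in G1, 296 CPM in S and 263 CPM in G2M cells, and PLAU at 92.2, 63.9 and 80.8 CPM. COL3A1 was at 1008, 886 and 883 CPM, LUM at 324, 306 and 308 CPM, and IGF1 at 34.4, 45.3 and 35.6 CPM. Each of these genes stood apart from clusters 1 and 2 in all 3 called phases. Of 130 measured matrix genes 3 were higher and 9 lower by 1.5-fold or more in G2M than in S cells, beside 4.19% higher and 4.37% lower of 11134 genes, of 89 cytokine genes 1 and 7, and of 110 stromal genes 6 and 10, with 2 and 6 of the 19 neuronal-type genes among these. The counts lower in G2M are thus above the share of all genes in the matrix and cytokine lists, though these counts are small. In the stromal lists 6 of the 10 genes lower in G2M were neuronal-type. CCL2 was at 43.5 CPM in G2M and 78.5 CPM in S cells and ADAMTS1 at 70.9 and 114 CPM. IL6 was lower in G2M than in S cells by less than 1.5-fold, at 34.5 and 48.6 CPM, and was at 53.7 CPM in G1 cells.

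The same genes were compared in cells with and without a UMI of MKI67 or TOP2A. In cluster 6 HAS2 was at 266 CPM in the cells with such a UMI and at 358 CPM in those without, and in clusters 1 and 2 at 41.5 CPM with and 37.9 CPM without. COL3A1 was at 913 CPM with and 726 CPM without in cluster 6, and at 1657 and 1805 CPM in clusters 1 and 2. IGF1 was at 39.1 and 33.0 CPM in cluster 6 and at 140 and 169 CPM in clusters 1 and 2, and C3 at 15.9 and 10.1 CPM and at 41.7 and 54.4 CPM. As a group, cells of clusters 1 and 2 with such a UMI cannot be read as cycling. CDK1 was at 3.07 CPM in them and 2.17 CPM in the cells without, against 142 and 4.39 CPM in cluster 6. CCNB1 differed by more, at 10.5 and 3.61 CPM, against 263 and 54.5 CPM in cluster 6. How many of these cells were cycling was not tested. The contrast within clusters 1 and 2 therefore does not show how these genes go with cycling.

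Outside the cycle lists, the genes with the highest ratios of G2M to S cells included several with known mitotic roles. ARL6IP1, an endoplasmic reticulum protein, was at 595 CPM in G2M and 127 CPM in S cells, the importin KPNA2 at 396 and 74.5 CPM and UBE2S, which extends ubiquitin chains for the anaphase-promoting complex, at 645 and 155 CPM. KNSTRN (kinastrin), a kinetochore protein, was at 99.1 and 14.8 CPM. GPSM2 and NDE1, BORA, which activates Aurora A, DBF4B and MXD3, a MYC antagonist, follow. MGP, an inhibitor of matrix calcification, was also among the 10 and had 84.5% of its cluster 6 UMIs in 1 cell. At the other end GPC6, a glypican, was at 48.1 CPM in G2M and 125 CPM in S cells, KRTAP2-3 at 6.97 and 32.5 CPM and NEFM at 18.6 and 43.8 CPM. The 10 cluster 6 cells with the most UMIs of each gene held 27.4% of those of GPC6, 50.6% of KRTAP2-3 and 27.85% of NEFM. UMIs of these genes were found in 309, 79 and 188 cells. ACTC1 and TSHZ2 had 79.5% and 75.7% of their UMIs in 1 cell, and SFRP4 31.4%, so their ratios depend on which group that cell was called into.

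Between clusters 1 and 2, cluster 6 lay nearer to cluster 1 over genes outside the cycle that were higher in cluster 1. Of genes at 20 CPM or more, 980 differed by at least 2-fold between clusters 1 and 2, all higher in cluster 1. The level in cluster 6 stood a median of 69.7% of the way from cluster 2 to cluster 1 (quartiles 45.8 and 88.7%), and was beyond cluster 1 for 142 genes and beyond cluster 2 for 46. HMGA2, NRG1, PDGFC and SMAD3 lay beyond cluster 1. At 1.5-fold between clusters 1 and 2, 2083 genes were higher in cluster 1, and over these the median was 72.35%. The 56 genes higher in cluster 2 gave a median of 34.7%, nearer to cluster 2 (quartiles 0.744 and 76.2%). MALAT1 and median depth also differed between clusters 1 and 2, as given above, and their part in these values was not tested.

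Cycling cells of the TGFB library gave a comparison that uses none of the untreated cells. Only 21 TGFB cells were in cluster 6, and the cycling TGFB cells were in cluster 8, with 348 cells, of which 80.2% had a UMI of MKI67 or TOP2A, against 5.81% of 10267 cells in clusters 0, 3 and 4. By the 1.5-fold rule, 1492 of 10787 genes (13.8%) stood higher in cluster 8 and 682 (6.32%) stood lower, with 958 and 1160 under TMM and 994 and 1113 under median-of-ratios factors. HAS2 was at 489 CPM in cluster 8 and 89.7 CPM in clusters 0, 3 and 4, HMGA2 at 150 and 41.0 CPM, FGF5 at 70.9 and 26.0 CPM and WNT5B at 114 and 42.4 CPM. COL3A1 was at 1192 and 2034 CPM, IGF1 at 136 and 315 CPM, C3 at 9.87 and 23.1 CPM and IL6 at 81.1 and 131 CPM. These genes stood on the same side as in untreated cluster 6. PLAU was at 13.2 and 7.80 CPM, below its level in untreated cluster 6, and IL11 at 231 and 145 CPM, where untreated cells had under 5 CPM.

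Over the genes measured in both libraries, the matrix lists held 37 lower in cluster 6 and 29 lower in cluster 8, of which 21 were shared, 56.8% of the first and 72.4% of the second count. Of cytokine genes 21 were lower in both (72.4% of 29 and 84% of 25) and of stromal genes 20 (74.1% of 27 and 71.4% of 28). Higher in both were 6 matrix genes (50% of 12 and 75% of 8), 3 cytokine genes (50% of 6 and 50% of 6) and 9 stromal genes (56.25% of 16 and 100% of 9). Beside this, 1079 of all genes were higher in both (69.7% of 1548 and 76.0% of 1420) and 370 lower in both (59.2% of 625 and 60.2% of 615). The shares of the lists lie on both sides of these. Of these 3 groups of lists only ACTC1 was past 1.5-fold in opposite directions, and its log2 ratio in cluster 6 was -1.06 without the tenth of cluster 6 cells with the most UMIs.

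**Figure D4:**
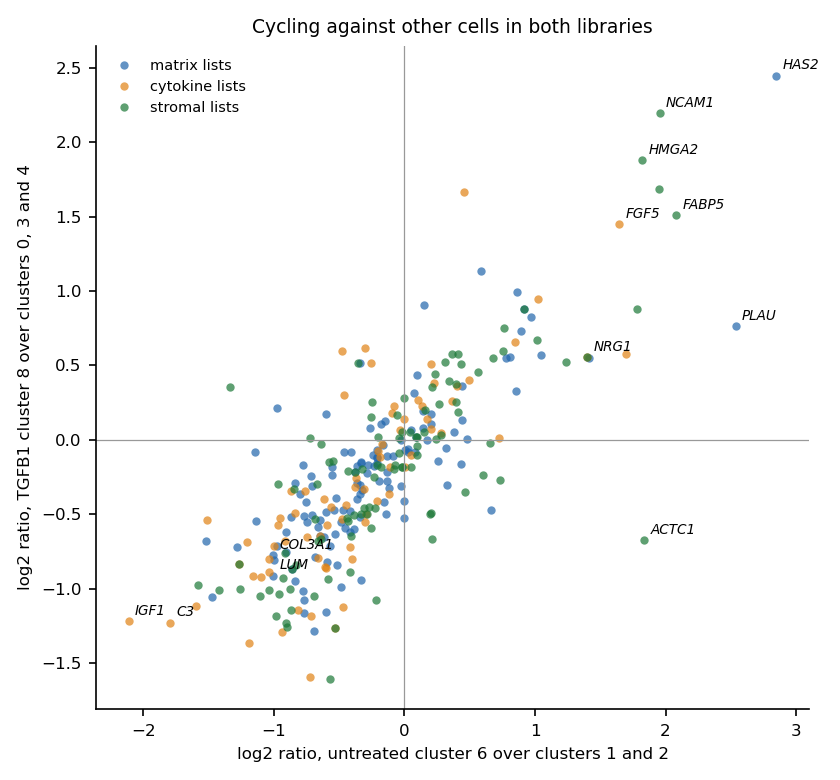
Each point is a gene of the matrix, cytokine or stromal lists, with its log2 ratio in untreated cluster 6 over clusters 1 and 2 on the x axis and in TGFB cluster 8 over clusters 0, 3 and 4 on the y axis. HAS2 lies at 2.85 and 2.45 and IGF1 at -2.11 and -1.22, and ACTC1, at 1.84 and -0.67, lies in the opposite quadrant, which it leaves (-1.06 on the x axis) without the tenth of cluster 6 cells with the most UMIs.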

How the data were processed

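Both libraries were deposited as 1 matrix of raw UMI counts per gene and cell, with a cell table in which the authors give the percent of mitochondrial UMIs and other columns (library name, cluster number). Per the submitters' processing notes, Cell Ranger 9.0.1, Seurat and GRCh38 were used, with roles and annotation not given in the sources used here. Embedding scores that the authors deposited for each cell were not used. Members and gene lists were chosen with earlier results of these data known.

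Counts were summed over the cells of a group and divided by the group's total to give CPM. Ratios carry exact conditional binomial (Clopper-Pearson) intervals, CPM exact Poisson intervals and shares exact binomial ones. Genes counted from 5 CPM in either group, and members of 54 lists as higher or lower from 1.5-fold. Phases were called with scanpy 1.11.5 (score_genes_cell_cycle, Seurat lists of 43 and 54 genes) on cells thinned to 7500 UMIs. Doublets were not called, and any are kept. Named are the 5 markers, the 12 highest and 12 lowest ratios at 20 CPM or more, the 12 highest outside the cycle lists, up to 4 members of each list by size of ratio (all members past 1.5-fold where 5 or fewer), and the 10 highest and lowest ratios of G2M to S cells. THY1, NT5E, PDGFRA, FN1, CDKN1A, IL11, IL11RA and MCM6 are outside this rule. Alternatives were TMM (edgeR 4.0.16) and median-of-ratios scaling, equal cell weights, thinning, minima of 1 and 20 CPM, each cluster alone, and cells with or without an MKI67 or TOP2A UMI or without the tenth of highest depth. The calculations were tested on simulated data with R 4.3.3, matplotlib 3.10.9, pandas 2.3.3, scipy 1.17.1, numpy 2.4.6 and Python 3.11.15. Gene positions are from GENCODE release 29 and promoters from RefSeq (GRCh38.p14), matched by symbol. A gene that the naming rule selects is not reported here.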

Additional observations from a re-analysis of the deposited data

Results flagged for a closer look

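ACTC1, cardiac actin, and GPC6, a glypican, lay past 1.5-fold in opposite directions in the cycling cells of the 2 libraries, and this difference was not tested. The log2 ratio of ACTC1 was 1.84 in untreated cluster 6 over clusters 1 and 2, and -0.67 in TGFB cluster 8 over clusters 0, 3 and 4. Without the tenth of cluster 6 cells with the most UMIs the untreated ratio was -1.06, the same direction as in TGFB cluster 8. In untreated cluster 6 1 cell held 79.5% of its 254 UMIs, and in TGFB cluster 8 1 cell held 22.6% of 288. The log2 ratio of GPC6 was 0.86 in untreated cluster 6 and -0.65 in TGFB cluster 8. It was at 76.8 CPM in untreated cluster 6, 56.6 CPM in cluster 1 and 19.6 CPM in cluster 2, and at 107 CPM in TGFB cluster 8 and 168 CPM in clusters 0, 3 and 4. For GPC6 1 cell held 11.9% of 1560 UMIs in untreated cluster 6, and 1 cell held 6.51% of 891 in TGFB cluster 8.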

How the results depend on the processing

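Of the log2 ratios of named genes under an alternative, 1428 moved by less than the interval, 953 by more, and 4 reversed: ACTC1 was at -1.06 without the tenth of cluster 6 cells with the most UMIs, and ITGB8 at 0.069, MALAT1 at 0.25 and NEAT1 at 0.51 against cluster 2 alone. HAS2 stayed between 2.72 and 2.98, PLAU between 2.41 and 2.61, IGF1 between -2.49 and -1.68 and COL3A1 between -1.21 and -0.87. List medians that reversed were those of the mural markers (0.73), at -0.47 with TMM, -0.46 with median-of-ratios factors, -0.35 with a minimum of 20 CPM and -0.38 against cluster 2, of the endothelial markers (-0.75), at 0.61 with a minimum of 1 CPM, and of the osteogenic and chondrogenic genes (-0.61), at 0.14 against cluster 2. Of lists with 3 or more measured members, 12 medians were at least 1.5-fold higher and 5 lower, and 10 were lower with TMM, 9 with median-of-ratios factors, 8 with equal cell weights, 10 against cluster 1 and 8 without the tenth of cells with the most UMIs. Genes at least 2-fold higher numbered 479 at a minimum of 20 CPM and 1680 against cluster 2, and lower 575 at 1 CPM, 115 at 20 CPM, 500 against cluster 1 and 135 against cluster 2. At 1.5-fold, 1057 were higher at 20 CPM and 3767 against cluster 2, and 1515 were lower at 1 CPM, 426 at 20 CPM and 1376 against cluster 1. The share called G1 was 9.86% with all UMIs, and S was 25.4% at 5000 UMIs. With other cycle genes the shares were 4.62% G1, 7.41% S and 88.0% G2M.

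The alternatives that follow were added after seeing the data. G2M over S cells gave 896 genes higher and 936 lower when thinned, 1101 and 1327 at 1 CPM, 250 and 146 at 20 CPM and 774 and 1043 with phases from other cycle genes. TGFB cluster 8 over clusters 0, 3 and 4 gave 958 higher and 1160 lower with TMM, 994 and 1113 with median-of-ratios factors, 856 and 345 at 20 CPM, and lower 1145 with equal cell weights and 1401 at 1 CPM. The median place of cluster 6 between clusters 2 and 1 was 68.3% at a minimum of 5 CPM and 71.9% at 1.5-fold. At 1.5-fold 2083 of the 2139 genes were higher in cluster 1, and the median was 34.7% over the 56 higher in cluster 2. The cause of these differences was not tested. No paired analysis was possible because each condition is 1 library and no result comes from a test. Depth limits low genes: thinned shares of rare transcripts such as IL11 rest on 27 of 823 cells in cluster 6. Lower levels are shares of all UMIs, so fewer molecules of a gene and more of others cannot be told apart.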

Other observations

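Some members of the metallothionein and metabolic lists also differed in cluster 6. The metallothionein MT2A, which binds zinc and copper, was at 3359 CPM in cluster 6, 999 CPM in cluster 1 and 1268 CPM in cluster 2 (3.04-fold higher, 3.02 to 3.07), and MT1E and MT1M were higher too among 4 measured members, with reads shared among near-identical metallothionein genes not assessed. In the TGFB library MT2A was at 3641 CPM in cluster 8 and 1842 CPM in clusters 0, 3 and 4. Of 20 genes of cholesterol and fatty acid synthesis 5 were higher and 0 lower, beside 15.2% higher and 6.84% lower of all genes, with the elongase ELOVL6 at 61.9, 30.4 and 19.9 CPM and FDPS, of the mevalonate pathway, at 80.9, 40.1 and 49.97 CPM. With TMM factors 4 of these were higher and 1 lower. Of 23 glycolysis and hypoxia genes ENO1 (673, 321 and 420 CPM) and PFKP were higher and ADM, a hypoxia-induced peptide, was lower. Both counts of this list are below the shares of 15.2% and 6.84% of all genes.

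Genes of the endoplasmic reticulum went both ways. The chaperone cofactors SDF2L1 (51.9 CPM in cluster 6, 24.8 CPM in cluster 1 and 32.6 CPM in cluster 2), MANF and CRELD2 were higher, while the stress response genes DDIT3 (32.2, 62.1 and 74.3 CPM), TRIB3 (10.5, 23.3 and 29.4 CPM), ATF4 and DNAJB9 were lower. Of 18 lysosomal and autophagy genes 5 were lower and 0 higher, beside 6.84% lower and 15.2% higher of all genes. Among the lower ones were the collagen-degrading protease CTSK at 101, 161 and 154 CPM and the autophagy receptor SQSTM1 at 232, 372 and 379 CPM. Of 19 neuronal-type genes 5 were higher and 9 lower. This split depended on the cluster compared, with 4 higher and 13 lower against cluster 1 alone (median log2 ratio -0.85). Against cluster 2 alone 11 were higher and 1 lower (median 0.62), beside 34.2% higher and 4.87% lower of all genes. Among the 5 higher genes, NTM, a cell adhesion protein, was at 78.4, 38.1 and 25.5 CPM and the guidance ligand SLIT2 at 334, 294 and 103 CPM. RGS4, a regulator of G protein signalling on the mural list, was at 35.2, 5.36 and 6.51 CPM and CSPG4 at 12.1, 3.38 and 3.52 CPM, while ABCC9 of the same list was lower at 45.3, 99.9 and 56.2 CPM.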
